A study of Mus musculus with 42 samples.

Results

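Defensin genes, the mouse genes named Defa or Defb, were followed across lamina-associated domains (LADs) of mouse liver. The set holds every protein-coding autosomal gene of the mm10 annotation (GENCODE vM21) whose symbol begins with Defa or Defb. This gave 64 of 20807 genes, of which 22 encode alpha-defensins and 42 encode beta-defensins. They lie in 5 blocks, each a chain of genes with neighbouring start sites at most 500 kb apart. A pair of genes lies on chr1, 11 lie on chr2, 14 and 32 form a proximal and a distal block on chr8, and 5 lie on chr14.

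LADs were mapped by ChIP-seq of lamin B1 (LMNB1) in 14 libraries, each from the liver of 1 wild-type C57Bl/6 mouse. Liver of non-synchronized (NS) mice was taken at midday, a day ahead of the fast. The other mice went without chow for 24 h until circadian time CT0, when the lights came on and food was returned, and were taken at CT0, CT6, CT12, CT18, CT24 or CT30. Each of the 7 groups has 2 mice, kept in a cycle of equal light and dark, and no group differs from another in genotype. The labels name the mice female in one place and male in another, so sex is not used, and age was not stated. The libraries come from whole liver pieces, in which a contact held in fewer cells and a weaker contact in every cell cannot be told apart. No expression values were analysed here, so neither the tissue label nor the activity of the genes was checked.

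Defensins are small cationic peptides that damage microbial membranes. Mouse alpha-defensins, also called cryptdins, are made by Paneth cells at the base of the small intestinal crypts, while beta-defensins are made by epithelia, many of them in the male reproductive tract. Hepatocytes are not their typical source. LADs are long domains of chromatin in contact with the lamin meshwork under the nuclear envelope, and they hold mostly silent genes.

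The bases before the start site are shown for 6 members, the first alpha-defensin and the first beta-defensin by position in each block that have an entry in the RefSeq promoter table (GRCm38.p6), since the blocks differ in their LAD state and these are the sequences on which the members are held side by side. An entry was present for 41 of the 64 members, and Defb18 and Defb40, the first of their blocks, had none. Each run is 150 bases long and reads 5′ to 3′ toward the gene, with TATAAA, the letters of a TATA box, in capitals.
Defb41, chr1:18265139-18265288, minus strand: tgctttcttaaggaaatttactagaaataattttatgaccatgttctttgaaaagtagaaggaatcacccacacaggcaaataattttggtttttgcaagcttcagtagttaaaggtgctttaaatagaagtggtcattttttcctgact
Defb23, chr2:152464621-152464770, minus strand: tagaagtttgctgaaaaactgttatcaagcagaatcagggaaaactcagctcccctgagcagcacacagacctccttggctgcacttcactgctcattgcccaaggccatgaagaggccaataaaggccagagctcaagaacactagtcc
Defb38, chr8:19026569-19026718, minus strand: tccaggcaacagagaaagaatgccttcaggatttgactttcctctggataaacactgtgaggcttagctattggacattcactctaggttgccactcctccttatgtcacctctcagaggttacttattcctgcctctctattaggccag
Defb33, chr8:20892517-20892666, plus strand: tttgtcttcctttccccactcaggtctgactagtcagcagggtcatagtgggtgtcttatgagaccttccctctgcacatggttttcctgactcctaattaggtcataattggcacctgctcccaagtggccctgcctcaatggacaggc
Defa21, chr8:21025395-21025544, plus strand: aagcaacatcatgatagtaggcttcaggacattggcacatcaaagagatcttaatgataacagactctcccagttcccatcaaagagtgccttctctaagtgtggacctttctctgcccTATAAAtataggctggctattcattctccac
Defb48, chr14:62984511-62984660, minus strand: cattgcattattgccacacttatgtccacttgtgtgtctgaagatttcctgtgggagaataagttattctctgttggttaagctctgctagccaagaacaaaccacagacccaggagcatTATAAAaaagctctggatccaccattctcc

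Of these 6, Defa21 and Defb48 carried TATAAA close to their start. TATAAA was searched on the gene's own strand in the 50 bases before the GENCODE start, and on either strand in the 250 bases before it, in the genome sequence of all genes. In the 50 bases it was present in 13 of 22 alpha-defensin genes (59.1%) and in 5 of 42 beta-defensin genes (11.9%), against 3.31% of all 20807 autosomal genes. In the 250 bases it was present in 81.8% of the alpha-defensins, 21.4% of the beta-defensins and 11.6% of all genes. Both families had few CG pairs there, with a median of 1 in the 250 bases against 8 in all genes, and their median GC share was 46.6% and 46.8% against 54.4%. The alpha-defensin sequences were much alike. Over 231 pairs of alpha-defensins the median identity of the 250 bases was 76.0%, 19 pairs reached 95%, and 3 pairs were identical (Defa21 with Defa22, Defa2 with Defa33, and Defa20 with Defa32). Over 861 pairs of beta-defensins the median was 59.2% and the highest value 89.2%.

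A gene was counted in a LAD when its start site lay inside a LAD of that library. In the NS mice, 0 members (0%) in replicate 1 and 24 (37.5%) in replicate 2 were in LADs, against 4.18% and 8.28% of all autosomal genes. At CT0, the counts were 0 (0%) in replicate 1 and 23 (35.9%) in replicate 2, against 5.54% and 8.62% of all genes. Both groups thus held a mouse with no defensin gene in a LAD beside a mouse with more than 20.

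At CT6, 28 members (43.8%) in replicate 1 and 43 (67.2%) in replicate 2 were in LADs, with 7.30% and 10.2% of all genes. At CT12 the counts were 24 (37.5%) and 37 (57.8%), with 8.51% and 9.85% of all genes. At CT18 they were 23 (35.9%) and 48 (75%), with 9.79% and 10.8%. The 3 highest counts of the 14 libraries were those of replicate 2 at these time points.

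At CT24, 34 members (53.1%) in replicate 1 and 23 (35.9%) in replicate 2 were in LADs, with 9.48% and 8.20% of all genes. At CT30 the counts were 25 (39.1%) and 23 (35.9%), with 6.31% and 5.79%. The median over the 14 libraries was 37.5%, and the share of defensins was above that of all genes in 12 libraries and below it in NS replicate 1 and CT0 replicate 1.

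**Figure D1:**
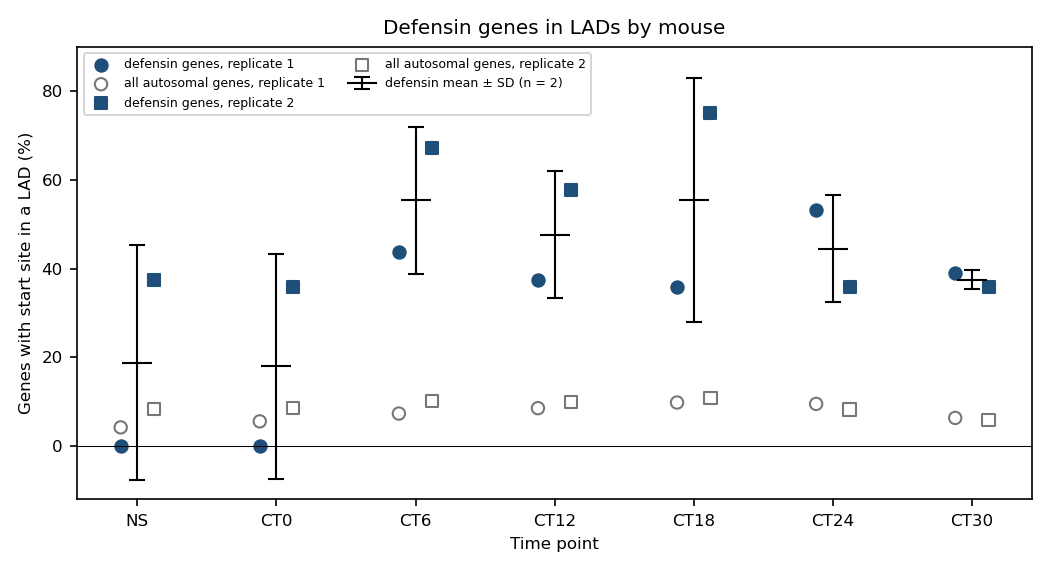
Percent of the 64 defensin genes (filled) and of all autosomal protein-coding genes (open) with a start site in a LAD, by time point, with circles for replicate 1 and squares for replicate 2; the black bars give the defensin mean ± SD (n = 2). In NS and CT0 the mouse of replicate 1 sits at 0, and in the other 12 libraries the defensins sit between 35.9% and 75%.

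The LAD state divided the defensins by place. In at least 1 library 48 members (75%) were in a LAD, against 17.1% of all autosomal genes, and 16 members (25%) were in none, against 82.9%. In at least 12 of the 14 libraries 21 members (32.8%) were in a LAD, against 3.98% of all genes. In all 14 libraries the count was 0 members, against 0.875% of all genes, since NS replicate 1 and CT0 replicate 1 held none. All 21 members found in at least 12 libraries were alpha-defensins, and all 16 that were in no LAD were the beta-defensins of chr2 and chr14.

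**Figure D2:**
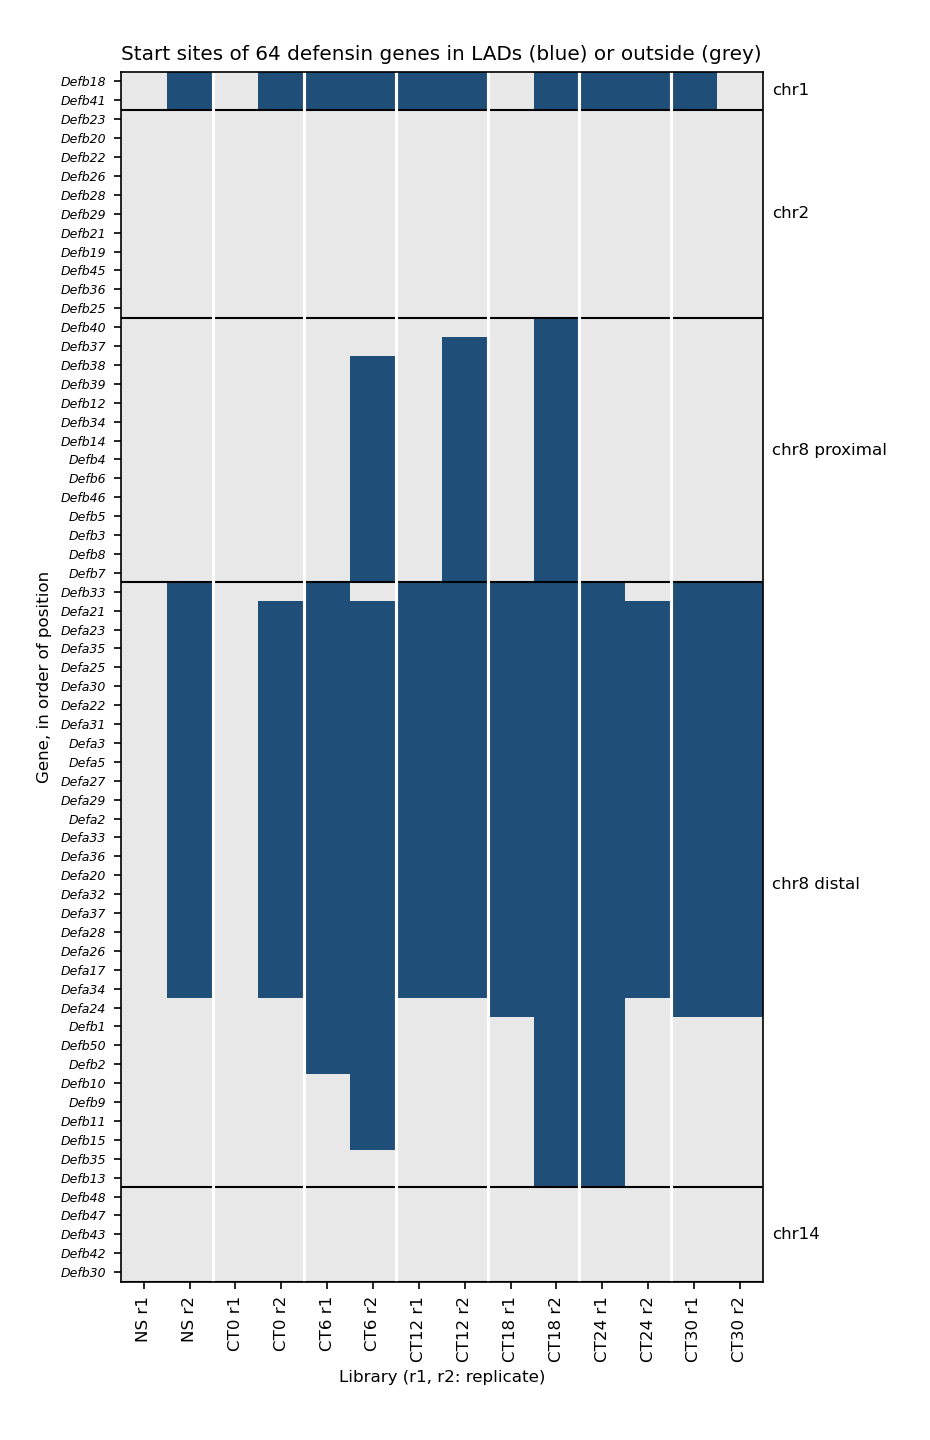
LAD state of each defensin gene (rows, in order of position) in each library (columns), with blue for a start site in a LAD and grey for one outside. The 21 alpha-defensins from Defa21 to Defa34 are blue in the same 12 libraries, the chr1 pair in 10, the proximal chr8 block in up to 3, and the chr2 and chr14 blocks in 0.

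The alpha-defensins all lie in the distal block of chr8 (chr8:20892669-21948850, 1056 kb), which opens with the beta-defensin Defb33 and closes with 9 further beta-defensins from Defb1 to Defb13. From Defa21 (chr8:21025545-21026516) to Defa34 (chr8:21665797-21666732), 21 alpha-defensins shared 1 state in every library, in a LAD in 12 and outside in NS replicate 1 and CT0 replicate 1. Defa21 lay a median of 158 kb inside a LAD and Defa5, a cryptdin gene near the middle chosen after its values were seen, 416 kb inside. In the 2 libraries without a LAD over this block the nearest one was 27034 kb away (NS replicate 1) and 3268 kb away (CT0 replicate 1).

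A single LAD covered these genes in each of the 12 libraries, and its called start varied less than its called end. The starts lay between 20814001 and 20916001 on chr8, a spread of 102 kb, and the ends between 21700000 and 21984000, a spread of 284 kb. Borders fall on the bins of the LAD calls, 4 to 46 kb wide in these 12 libraries. In the paper, repeated calls on the same data varied by a median length above both spreads, judged there to affect calling little. The part of call variation in these 2 spreads was not tested. The earliest start lies in a 50 kb window with 74.5% of its bases unknown in the assembly. In the window before it 100% are unknown. Whether these unknown bases limited the spread of the starts was not tested. The LAD was 784 to 1170 kb long with a median of 925 kb. The end lay on either side of Defb1. It fell between Defa34 and Defb1 in 8 libraries, at 21700000 to 21762000, and beyond Defb1 in 4, at 21840000 to 21984000, with 111 kb between the starts of Defa34 and Defb1.

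**Figure D3:**
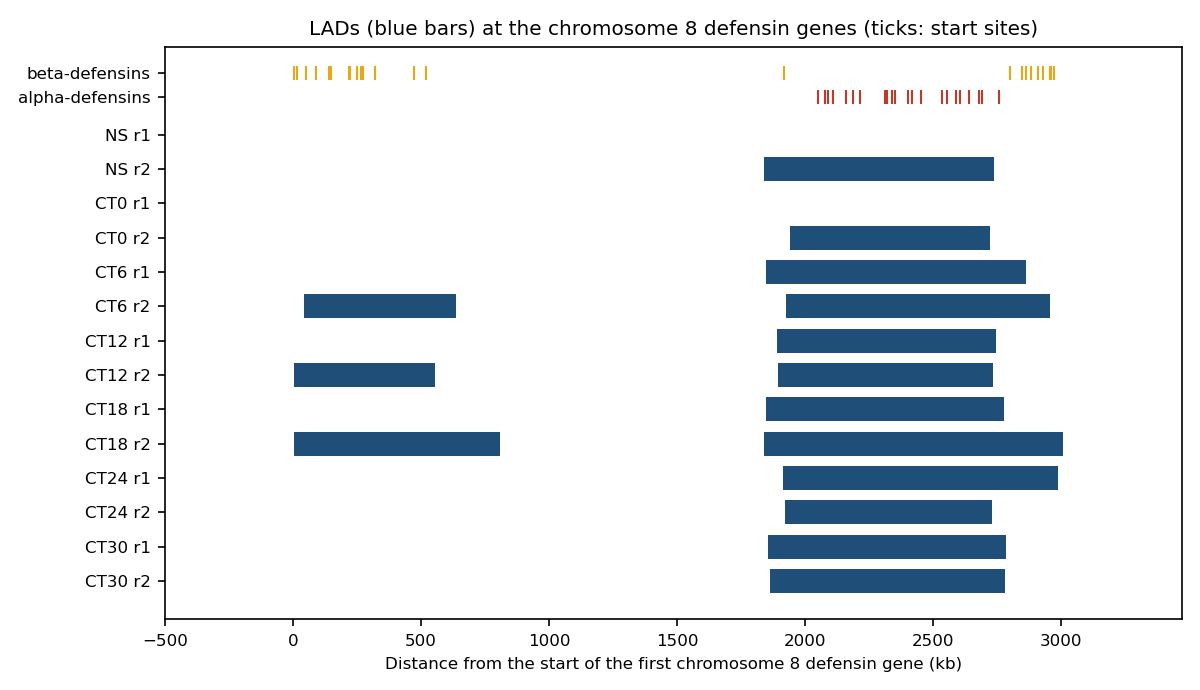
LADs (blue bars, 1 row per library) against the distance in kb from the start of the first chr8 defensin gene, with start sites of alpha-defensins (red) and beta-defensins (yellow) as ticks above. The bar over the alpha-defensins is present in 12 libraries, while a bar over the proximal beta-defensins is present in CT6, CT12 and CT18 replicate 2.

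The end of that LAD set the state of the last alpha-defensin, Defa24 (chr8:21734494-21735471), and of the beta-defensins after it. Defa24 was in a LAD in 7 libraries, both CT6 mice, both CT18 mice, CT24 replicate 1 and both CT30 mice. In the other 5 libraries in which its neighbours were in a LAD, the LAD stopped 14.5 to 34.5 kb before its start. In CT30 replicate 1 and replicate 2 the start of Defa24 lay 27.5 and 23.5 kb inside, less than 1 bin (31 and 46 kb). Defb1 (chr8:21776599-21795185), a beta-defensin that epithelia make without stimulation, was in a LAD with Defb50 and Defb2 in 4 libraries, both CT6 mice, CT18 replicate 2 and CT24 replicate 1. For Defb2 and Defb50 at CT6 replicate 1 this rested on a border 0.1 and 16.5 kb past their starts, less than 1 bin (35 kb).

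Farther along, Defb10, Defb9, Defb11 and Defb15 were in a LAD in 3 libraries (CT6 replicate 2, CT18 replicate 2 and CT24 replicate 1). Defb35 and Defb13 (chr8:21946762-21948850), the last of the block, were in a LAD in 2 (CT18 replicate 2 and CT24 replicate 1). The LAD thus reached through the whole block in 2 mice of different time points, whose partners of the same time point stopped at Defa24 and Defa34. At the other end, Defb33 (chr8:20892669-20897723) was in a LAD in 9 libraries. In CT0 replicate 2, CT6 replicate 2 and CT24 replicate 2 the LAD began 23.3, 7.3 and 5.3 kb beyond its start.

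The LAD of the distal block held many more genes for its length than most LADs. It contained 28 to 43 protein-coding genes, 21 to 32 of them members of the set, or 34.4 to 39.0 genes per Mb, with a median of 36.0. The median density of the autosomal LADs of the same libraries was 0.538 to 1.27 genes per Mb. Ranked by genes per Mb among the 125 to 325 autosomal LADs of its library, the LAD stood between place 2 and place 9. It was picked because it overlaps a cluster of closely spaced genes, so a high place follows in part from that choice. The LADs over the proximal chr8 block, picked in the same way, held 22.4 to 29.1 genes per Mb.

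The proximal block of chr8 (chr8:18974940-19497775, 523 kb) holds 14 beta-defensins, among them Defb14, Defb3 and Defb4, which epithelia make in response to microbes. Its genes were outside LADs in 11 libraries. A LAD of its own covered 12 of them in CT6 replicate 2, 13 in CT12 replicate 2 and all 14 in CT18 replicate 2, and these LADs were 594, 550 and 804 kb long. The 3 libraries belong to 3 time points, and in each case the partner mouse had no LAD there.

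The states within the proximal block differed at its first genes. Defb40 (chr8:18974940-18978256) was in a LAD in CT18 replicate 2, by 0.3 kb, and missed the LAD of CT12 replicate 2 by 1.7 kb. Both distances are less than 1 bin of these calls (6 and 10 kb). Defb37 was in a LAD in 2 libraries, and the 12 genes from Defb38 (chr8:19023407-19026566) to Defb7 (chr8:19495097-19497775) in 3. In 10 of the other 11 libraries the nearest LAD lay 1153 to 1418 kb from the block, and in NS replicate 1 it lay 29485 kb away. Over the 14 libraries, 66.1% ± 30.4 (SD, n = 14) of the distal genes and 19.9% ± 39.6 of the proximal genes were in LADs. The distal share was higher in 10 libraries, lower in 1 (CT12 replicate 2) and equal in 3, which is given as a description since this comparison was chosen after the values were seen.

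The pair on chr1, Defb18 (chr1:18236473-18237443) and Defb41 (chr1:18250980-18265138), had 1 state in every library. Defb41 is an epididymal beta-defensin. Both were in a LAD in 10 libraries and outside in NS replicate 1, CT0 replicate 1, CT18 replicate 1 and CT30 replicate 2, where the nearest LAD lay 5679 to 6833 kb away. Where it was present, their LAD was 1515 to 3024 kb long with a median of 2751 kb. It held 4 to 9 protein-coding genes, or 1.68 to 3.30 per Mb. The pair thus lay in a longer LAD with fewer genes for its length than the alpha-defensins.

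The 11 beta-defensins of chr2, from Defb23 (chr2:152459055-152464620) to Defb25 (chr2:152622356-152623053), were outside LADs in all 14 libraries. The nearest LAD lay 971 kb (CT18 replicate 2) to 17939 kb (CT30 replicate 1) from the block, with a median of 8607 kb. The 5 beta-defensins of chr14, from Defb48 (chr14:62977524-62984510) to Defb30 (chr14:63034087-63049960), were also outside in all 14, at 9023 to 19649 kb and a median of 17116 kb. Over all autosomal genes the median start site lay 3707 kb outside a LAD, taking each gene's median over libraries. By that measure 10.0% of all genes were farther from a LAD than the middle gene of the chr14 block and 22.8% farther than that of the chr2 block.

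**Figure D4:**
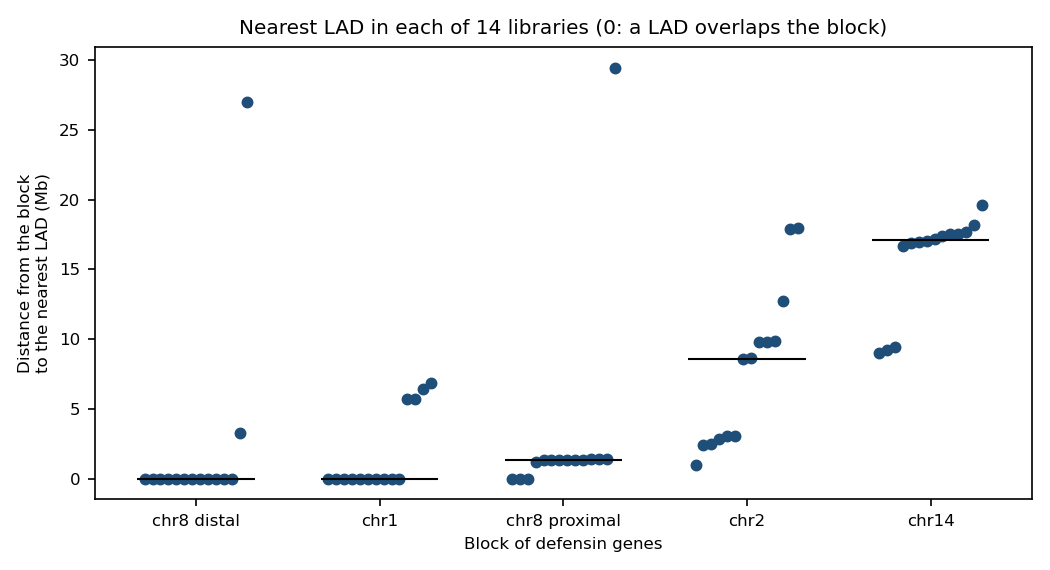
Distance in Mb from each block of defensin genes to the nearest LAD, with 1 point per library sorted by distance and a black line at the median; 0 marks a LAD that overlaps the block. The chr8 distal block is at 0 in 12 libraries and the chr1 block in 10, while the chr2 and chr14 blocks are above 0 in all 14.

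The clusters of chr8, chr2 and chr14 were compared within libraries. The share of the 46 chr8 members in LADs was 52.0% ± 27.9 (SD, n = 14), against 0% on chr2 and on chr14. It was higher than either in 12 libraries and equal in 2 (exact two-sided paired permutation test over 14 libraries, p = 4.88e-04, adjusted over 3 pairs 7.32e-04 for each of the 2 pairs). Since chr2 and chr14 were at 0 throughout, no difference could be negative, and this p reflects only the 12 libraries in which any chr8 member was in a LAD. The chr2 and chr14 shares were equal in every library (p = 1, exact permutation test). The difference rested on LADs of moderate length. With LADs of at least 1 Mb alone it was 18.5 percentage points (p = 0.125, exact permutation test, the smallest p that the 4 libraries above 0 allow), and by percent of base pairs covered it was 31.6 points. Most of the LADs over the alpha-defensins are shorter than 1 Mb.

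Differences between time points were asked of the 6 CTs. The mean share of members in LADs was 18.0% ± 25.4 (SD, n = 2) at CT0, 55.5% ± 16.6 at CT6 and 47.7% ± 14.4 at CT12. It was 55.5% ± 27.6 at CT18, 44.5% ± 12.2 at CT24 and 37.5% ± 2.21 at CT30. Time point held 49.3% of the variance between the 12 libraries (exact permutation test over the 10395 divisions of them into 6 pairs, p = 0.462). Pairs formed without regard to time also hold part of the variance, and a fraction of 0.462 of these divisions held at least as much. The share alone is therefore no measure of an effect of time. For the chr8 cluster the values were 50.9% and p = 0.418 (exact permutation test). The chr2 and chr14 clusters were at 0 in every library and gave no variance to test. A difference between CTs larger than the spread between mice of 1 time point was not detected. Without CT0 replicate 1 the share of variance was 30.2% for all members.

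Members in LADs in both mice of a time point were also counted. The counts were 0 at CT0 (0% of members, against 3.93% of all genes), 27 at CT6 (42.2%, against 6.21%) and 24 at CT12 (37.5%, against 7.49%). At CT18, CT24 and CT30 they were 23 each (35.9% of members, against 7.79%, 6.88% and 4.57% of all genes). From CT6 on, 21 to 25 of these were in the distal chr8 block, and the chr1 pair was among them at CT6, CT12 and CT24. No proximal chr8 gene was in a LAD in both mice of any time point.

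NS mice and CT0 mice differ by the fast and by the hour at which they were taken, and these cannot be told apart. The share was 18.8% ± 26.5 (SD, n = 2) in NS mice and 18.0% ± 25.4 at CT0, a difference of -0.781 percentage points (exact two-sided permutation test, p = 1, where 2 mice against 2 cannot go below 0.333). In both mice of the group, 0 members were in LADs in NS mice (0% of members, against 2.45% of all genes) and 0 at CT0. The direction turned when NS replicate 2 was left out (18.0 points) or CT0 replicate 1 was left out (17.2 points), so that 1 mouse sets it.

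The libraries differed in the resolution and extent of their LADs, and these values moved with the defensins. The bin size of the LAD calls, read from the positions of the starts, was 61 kb in NS replicate 1 and 47 kb in CT0 replicate 1, the largest of the 14, and 4 to 46 kb in the others. CT30 replicate 2, at 46 kb, had 23 members in LADs. LADs covered 13.5% of the autosomes in NS replicate 1 and 17.2% in CT0 replicate 1, against 15.8% to 26.5% in the others. The share of members in LADs rose with autosomal LAD coverage over the 14 libraries (Pearson r = 0.732, permutation p = 0.00269, adjusted over 2 measures 0.00538; Spearman rho = 0.590, permutation p = 0.0298, adjusted 0.0596). Without the 2 libraries farthest from the median coverage (NS replicate 1 and CT30 replicate 2) r was 0.657 (permutation p = 0.0208) and rho 0.441 (permutation p = 0.152). The rank relation thus passed the test over all 14 libraries only before adjustment, and did not pass without these 2 libraries.

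Within replicate 1 that correlation was 0.716 (exact permutation p = 0.0794, n = 7) and within replicate 2 it was 0.711 (exact permutation p = 0.0583, n = 7). Against log2 bin size r was -0.551 (permutation p = 0.0396, also after adjustment) and rho -0.468 (permutation p = 0.0919, also after adjustment). Without the 2 libraries farthest from the median bin size (NS replicate 2 and CT0 replicate 2) r was -0.733 (permutation p = 0.00622) and rho -0.730 (permutation p = 0.00921). Pearson r was -0.613 within replicate 1 and -0.186 within replicate 2 (exact permutation p = 0.133 and 0.670, n = 7). The part of bin size and coverage in the defensin values was not tested. Both libraries without a defensin in a LAD carry the number 1 in their deposited names, as do 4 other libraries, which held 23 to 34 members in LADs.

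Repeated sequence limits where reads can be placed, and its share differed between the blocks. A 32-base word was called unique when it occurs once in the genome on both strands. In a regular sample of autosomal positions 84.6% of words were unique. The share was 93.2% in the chr2 block, 93.0% in the chr14 block, 87.5% in the chr1 block and 71.6% in the proximal chr8 block. In the distal chr8 block it was 31.8%, and 11.6% from the first to the last alpha-defensin. The stretch that was in a LAD in 12 libraries was thus the one with the fewest unique words among the blocks.

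Between the 2 chr8 blocks the share was 24.0%, and 25.1% of the bases (350 kb in 4 runs) are unknown in the assembly, while no block holds an unknown base. The LADs stopped short of the middle of this stretch, at 19782000 at the latest from the proximal side and from 20814001 on at the distal side. After the last alpha-defensin, from 21735472 on, the share of unique words was 76.9%. The ends of the distal LAD, at 21700000 to 21984000, lay on both sides of that position. The part of repeated sequence in these LAD calls was not tested.

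**Figure D5:**
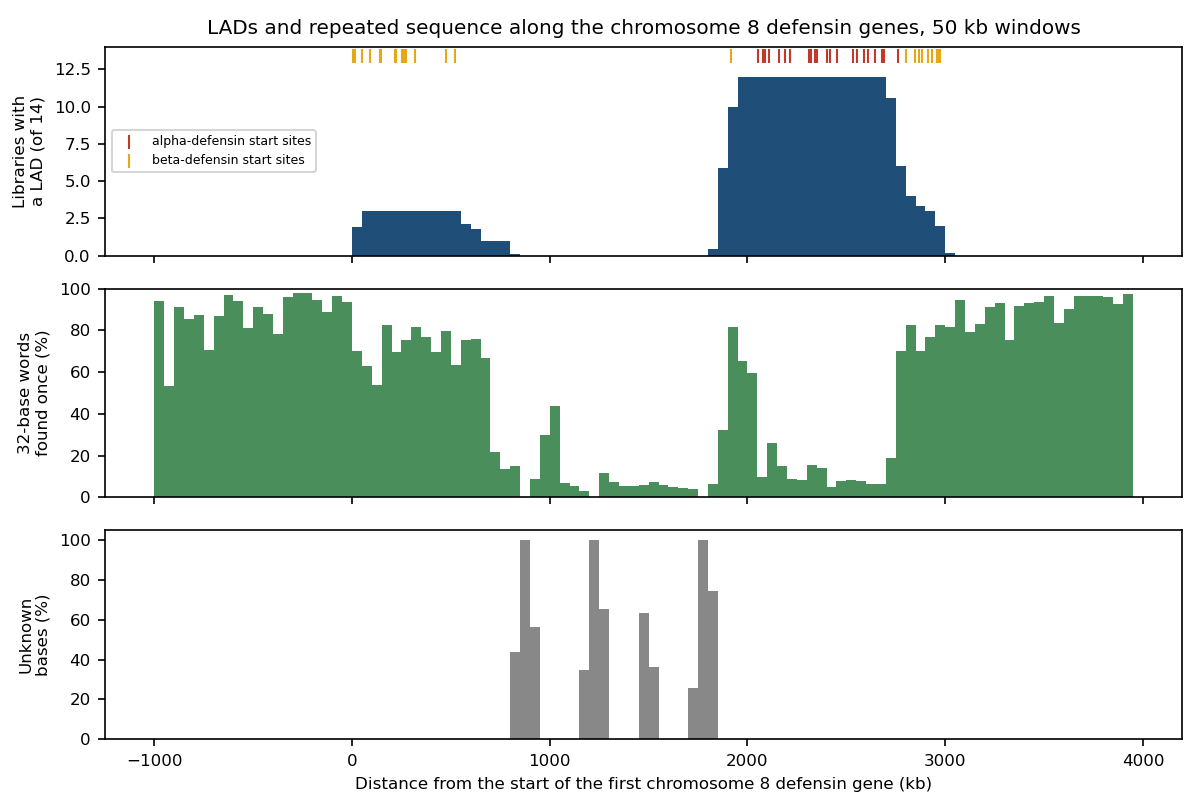
Mean number of libraries with a LAD (top, of 14), percent of 32-base words that are unique (middle) and percent of unknown bases (bottom) in 50 kb windows, against the distance in kb from the start of the first chr8 defensin gene; ticks mark start sites of alpha-defensins (red) and beta-defensins (yellow), and a window with no known base has no bar in the middle panel. The windows over the alpha-defensins reach 12 libraries and low shares of unique words, and windows in the middle of the stretch between the blocks combine low shares with 0 libraries.

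The genes around the defensins showed where the chr8 LADs ended. Within the cluster, 16 protein-coding genes with other symbols lie between the first and last member. They were set apart by symbol alone, so defensin genes under other names may be among them. Their median was 11 libraries in a LAD, and 7 of them were in a LAD in 12. Gm15056 and AY761184, next to the borders, were in a LAD in 11 libraries, and Gm6040, the next one in, in 12. The beta-defensin-related Spag11a and Spag11b, which lie in the proximal block and were chosen after their values were seen, were in a LAD in 3. In the stretch between the blocks 4930467E23Rik was in a LAD in 1 library, and Gm31371, Gm15319 and Gm21119 were in 0.

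In the flanks of the chr8 cluster few genes were in LADs. Of the 25 genes within 1 Mb of the first and last chr8 member, 23 were in a LAD in 0 libraries. The exceptions were Fam90a1a in 2 libraries and Ccdc70 in 1, directly after Defb13. The nearest genes beyond the borders were Xkr5 before Defb40 and Atp7b, the copper transporter of hepatocytes, after Ccdc70, and both were in 0. On chr1, where the pair was in a LAD in 10 of 14 libraries, the 5 genes within 1 Mb were in a LAD in 7 to 9, Pi15, Crispld1 and Crisp4 in 9 and Tfap2d and Tfap2b in 7 (named after their values were seen). On chr2 the 47 neighbours and on chr14 the 21 neighbours were in 0 libraries, except for 1 gene on chr2 in 1 library.

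Other tandem gene families were measured in the same way. The 119 Vmn2r genes, which encode vomeronasal type 2 receptors, were in LADs at 57.6% on average over the 14 libraries, from 37.0% to 69.7%. The defensins, at 39.6% on average, were lower by 18.0 percentage points ± 14.7 (SD of the difference, n = 14; exact two-sided paired permutation test, p = 6.10e-04, adjusted over 2 families 0.00122), in 13 of 14 libraries. The exception was CT18 replicate 2. The defensin average joins families of unlike state. The median over libraries was 97.7% for alpha-defensins alone and 7.14% for beta-defensins alone, subsets chosen after the values were seen. The Vmn2r genes kept 39.5% and 37.0% of their genes in LADs in NS replicate 1 and CT0 replicate 1, where the defensins were at 0.

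The 26 Klr genes of chr6, which encode receptors of natural killer cells, were at 42.9% on average. The defensins differed from them by -3.24 points ± 23.3 (exact two-sided paired permutation test, p = 0.608, adjusted 0.608), lower in 9 libraries, higher in 3 and equal in 2. The Klr genes were at 0 in NS replicate 1 and CT0 replicate 1, as the defensins were, and also in both CT30 mice, in which 39.1% and 35.9% of the defensins were in LADs.

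Other antimicrobial and Paneth cell genes were read from a list of 40 genes, of which 39 were found in the annotation. In each library 6 to 10 of them were in a LAD, with a median of 7, or 15.4% to 25.6% of the list against 4.18% to 10.8% of all autosomal genes. Of the list, 28 (71.8%, against 82.9% of all genes) were outside LADs in every library. Of the genes in a LAD in each library, 6 belong to 1 cluster. These, the 6 regenerating islet-derived lectin genes of chr6 (Reg3b, Reg3d, Reg3a, Reg2, Reg1 and Reg3g), were in a LAD in all 14 libraries, a median of 2908 to 3006 kb inside, and so also in the 2 libraries without a defensin in a LAD. Atoh1, a transcription factor of intestinal secretory cells, was in a LAD in 7 libraries, Pglyrp3 in 4 and Mmp7, the protease that activates mouse alpha-defensins, in 3. Pglyrp4 and S100a9 were in 1 each. Lyz1, the Paneth cell lysozyme, and Camp, the cathelicidin gene, were in 0, as was Hamp, the hepcidin gene of hepatocytes. These 3 were chosen after their values were seen.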

How the data were processed

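LMNB1 ChIP-seq LADs of 14 mouse livers were used, and the inputs and RNA-seq of the study were not analysed here. Per the labels and the study's methods, the authors mapped reads to mm10 with Bowtie2 2.25.0 (version as in the submitters' processing notes), removed duplicates with Picard, down-sampled ChIP and input reads to one depth per chromosome and called LADs with EDD for each mouse, without pooling. The deposited files give a chromosome, start and end per LAD and no count, so the depth behind each LAD is unknown and neither an interval nor a floor could be given. Precision comes from 2 mice per group. Replicate numbers follow the sample titles, and the labels give no sequencing date.

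Start sites were taken from GENCODE vM21, and bases from GRCm38.p6. Bin size was read from the LAD starts as their largest common divisor in whole kb. Tests were exact permutation tests over libraries, with 100000 resamples for correlations over 10 or more libraries, in Python 3.11.15, NumPy 2.4.6 and SciPy 1.17.1, and were tested on simulated data. Members, lists and alternatives were chosen with earlier results of these data known. Named genes are the first and last of each block, those that differ from most of their block in 3 or more libraries, and genes at LAD borders. Alternatives were another definition of a gene in a LAD, LAD length, joined LADs and left-out mice.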

Additional observations from a re-analysis of the deposited data

How the results depend on the processing

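Without a score or read count per LAD, the calls could not be filtered on strength, and depth limits them to an unknown extent. Counting genes with at least 50 percent of the body covered turned no direction and ended no call. Joining LADs less than 200 kb apart left the values as they were, so it was no further check. The median share of members in LADs, 37.5%, moved to 3.12% with LADs of at least 1 Mb. Subsets chosen after seeing the data gave 97.7% for alpha-defensins alone and 7.14% for beta-defensins alone. With LADs of at least 1 Mb the difference of chr8 from chr2 and from chr14 was 18.5 points (p = 0.125, exact permutation test) and r with coverage was 0.516 (permutation p = 0.0588). That filter drops by construction all LADs over the alpha-defensins shorter than 1 Mb. The proximal block alone, chosen after seeing the data, gave 19.9 points against chr2 (p = 0.250, exact permutation test). With chr2 at 0 throughout, this is the only p that the 3 libraries above 0 allow, so it decides nothing.

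By percent of base pairs covered, the difference of chr8 from chr2 and from chr14 was 31.6 points (p = 4.88e-04, exact permutation test). This p could not change, since it is set by the 12 libraries above 0 on chr8, with chr2 and chr14 at 0. Leaving out 1 mouse at a time left the median at 37.5%, the difference of chr8 from chr2 and chr14 at 48.3 to 56.0 points, and r at 0.621 to 0.781. It gave 30.2% to 67.8% of the variance between CTs for all members (lowest without CT0 replicate 1) and 32.1% to 68.1% for chr8, all with exact permutation p of 0.182 or more. CT0 minus NS ranged from -19.5 to 18.0 points, reversed without NS replicate 2 (18.0) and without CT0 replicate 1 (17.2). The cause was not tested. Deviations of mice with the same replicate number had a median correlation of 0.0541 over 21 pairs of time points (-0.109 to 0.457, 6 above 0.1). The number was therefore not used as a pairing in the main tests, though some time points may share deviations. With the replicate block the share of variance between CTs was 61.6% (p = 0.425, exact permutation test) and 64.0% for chr8 (p = 0.367), and CT0 minus NS was -0.781. With the number in the deposited names as a block, chosen after seeing the data, it was 51.1% and 52.5% (exact permutation p = 0.540 and 0.535). Time tests for chr2 and chr14 could not be computed.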
